A study of Mus musculus with 69 samples.

Results

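The expression of the liver X receptors (LXR) and of 6 of their target genes was followed in murine vascular cells exposed to metabolic and hormonal stressors. The receptor genes were Nr1h2 (LXRβ) and Nr1h3 (LXRα). The targets were Abca1, Abcg1, Mylip, Srebf1, Lpcat3 and Smpdl3a. These 8 genes were chosen by name, with earlier results of these data known. They were found by Ensembl identifier among the 56953 genes of the count tables. All 8 passed the filter on low counts in every model, and no member was left out.

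LXR are nuclear receptors that sit on DNA together with a retinoid X receptor and are switched on by oxysterols and other sterols that form when a cell holds much cholesterol. Their best known targets move cholesterol out of the cell: Abca1 hands cholesterol and phospholipid to lipid-poor apolipoprotein A-I, and Abcg1 hands cholesterol to larger HDL particles. Mylip, also called Idol, is a ubiquitin ligase that sends lipoprotein receptors to degradation. Srebf1 encodes the transcription factor SREBP1, which drives fatty acid synthesis, Lpcat3 places polyunsaturated fatty acids into phospholipids, and Smpdl3a encodes a secreted phosphodiesterase. In vascular cells the efflux genes are known for limiting the storage of cholesterol in the vessel wall.

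RNA-Seq counts of 69 libraries from primary cells of male C57BL/6 mice were used. WT VSMC were aortic smooth muscle cells (16 libraries), KO VSMC were the same kind of cell from animals in which Cre recombinase under the SM22 promoter removes a floxed Egfr (15 libraries), and EC were heart endothelial cells enriched with antibody-coated beads (38 libraries). After serum withdrawal, cells stayed for 24 h under Control conditions, or received 20 mM glucose with free fatty acids at 100 µM (HG + FFA), 30 nM angiotensin II with a catecholamine at 300 nM (AII + NA) or all of these (ALL). The methods of the study give 100 µM for oleate and for palmitate each, and the labels only for the fatty acids as such. The catecholamine is epinephrine in the sample labels and norepinephrine in the methods of the study, and all incubations, Control included, contained fatty acid-free albumin according to these methods. Libraries formed 18 sets, each made of parallel cultures of a single animal: sets 1 to 4 in WT VSMC, sets 5 to 8 in KO VSMC and sets 9 to 18 in EC. Each group of WT VSMC had n = 4, KO VSMC had n = 4 except ALL with n = 3 (no set 5), and EC had n = 9 in Control (no set 10), n = 10 in HG + FFA, n = 9 in AII + NA (no set 15) and n = 10 in ALL. EC sets 17 and 18 shared an animal, EC sets 9 and 10 came from the animals of WT VSMC sets 1 and 2, and EC sets 15 and 16 came from the animals of KO VSMC sets 7 and 6, although the labels give all EC the WT genotype. All VSMC libraries carry another batch label than all EC libraries, so that batch and cell type cannot be told apart.

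Counts per library ranged from 17166133 to 43240489. Levels are given as FPM, which are counts scaled to a common library size by a normalization over all 69 libraries, and as FPM per kb of exon where genes are compared with each other. Egfr, the gene targeted in KO VSMC, had 278 to 500 FPM in WT VSMC Control, and in KO VSMC Control 40.2 FPM in set 5 and 0.534 to 1.75 FPM in sets 6 to 8. KO VSMC set 5 therefore kept part of its Egfr RNA. Leaving it out changed calls in the Control comparison of KO VSMC with WT VSMC, where both results are given. The log2FC of stressors in KO VSMC and their differences from WT VSMC are given with set 5 included. Among the smooth muscle markers, the medians over 16 WT VSMC libraries were 875 FPM for Acta2, 4.01 FPM for Tagln and 6.40 FPM for Myh11. The summed level in WT VSMC Control was 4700 to 10800 FPM for 4 fibroblast markers and 280 to 1090 FPM for 5 smooth muscle markers. These marker levels are not scaled by exon length, so they do not rank genes or lists against each other. Overlap of the marker genes with other genes was not examined. In EC the summed level of 5 endothelial markers reached from 36.5 to 2820 FPM in Control and stayed under 100 FPM on average in sets 9, 11 and 13. The part of these cell mixtures in the results was not tested, but results in EC are also given without sets 9, 11 and 13 and without sets 15 and 16. Macrophages are rich in LXR targets, and macrophage or leukocyte markers were present at unequal levels. In WT VSMC the medians were 69.3 FPM for Lyz2, 8.05 FPM for Csf1r and 4.57 FPM for Cd68, with 0 of 16 libraries at 0. Those of Adgre1 and Ptprc were 5.26 and 0.516 FPM, each with 4 of 16 libraries at 0. In EC the medians of Lyz2, Csf1r, Cd68, Adgre1 and Ptprc were 25.3, 2.53, 1.33, 0.0749 and 0.0205 FPM. Of 38 EC libraries, 0, 1, 0, 18 and 19 were at 0 in the same order.

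Promoters were taken from RefSeq on GRCm38.p6 as windows from 250 bases before to 50 bases after the start of a transcript, which were given for 6 of the 8 genes. Abcg1 and Smpdl3a had no entry. The direct repeat known as DR4 that LXR and its partner bind, the letters AGGTCA given again after a spacer of 4 bases of any kind, was searched on both strands, with up to 3 mismatches in its 12 fixed letters. A match lay in 2 of the 9 windows, and 21.9% of all 32851 promoters held 1 as well, so that a match at this stringency is frequent. Both matches, in Abca1 and in Srebf1, were on the strand opposite to the gene, and their 12 fixed letters were identical to each other. The windows of Mylip and Lpcat3, which were also called as lower, held no match. A match is a description of the letters and no measurement of binding. The matches are shown because Abca1 and Srebf1 are among the members that fell, with capitals marking the positions of both AGGTCA units as read on the matching strand:
Abca1, chr4:53159947-53159962, 67 to 52 bases before the start: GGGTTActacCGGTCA
Srebf1, chr11:60210638-60210653, 182 to 167 bases before the start: GGGTTActggCGGTCA

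The full windows are printed 5′ to 3′ on the strand of the gene, with the whole match in capitals. Abca1 and Srebf1 both lie on the minus strand. Srebf1 had 3 windows for its different starts, and the window shown was the only 1 of these with a match.
Abca1, chr4:53159846-53160145: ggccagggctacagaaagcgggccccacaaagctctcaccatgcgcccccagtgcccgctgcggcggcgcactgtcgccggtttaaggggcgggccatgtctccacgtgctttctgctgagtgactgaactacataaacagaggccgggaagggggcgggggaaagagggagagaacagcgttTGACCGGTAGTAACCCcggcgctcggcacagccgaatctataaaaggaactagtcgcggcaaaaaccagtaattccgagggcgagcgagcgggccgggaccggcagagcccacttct
Srebf1, chr11:60210422-60210721: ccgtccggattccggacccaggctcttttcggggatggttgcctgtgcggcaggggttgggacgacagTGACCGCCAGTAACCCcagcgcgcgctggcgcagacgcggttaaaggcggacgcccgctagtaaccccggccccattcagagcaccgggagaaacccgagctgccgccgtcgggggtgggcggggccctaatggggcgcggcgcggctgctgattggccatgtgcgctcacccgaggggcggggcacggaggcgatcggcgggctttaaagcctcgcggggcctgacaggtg

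HG + FFA and ALL lowered the RNA of at least 1 LXR target in each cell type, and AII + NA alone moved none of the 8 genes past the threshold. Mylip was the common element: it fell under HG + FFA and under ALL in all 3 cell types, to between 43.2% and 57.2% of Control. Abca1 and Abcg1 fell in EC under both conditions and in WT VSMC under ALL, and Srebf1 fell in EC. The receptors Nr1h2 and Nr1h3 passed in no comparison with Control. A gene was called when its FDR, adjusted over all genes tested, was below 0.05 in the quasi-likelihood test of edgeR with the set as a block. Which of these genes respond to the metabolic and which to the hormonal part of the treatment is the question of these comparisons.

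In numbers, HG + FFA called 1 of 8 members in WT VSMC (Mylip), where 0.538% of all genes were called, 1 of 8 in KO VSMC (Mylip), where 0.439% were called, and 4 of 8 in EC (Abca1, Abcg1, Mylip and Srebf1), where 3.53% were called. ALL called 4 of 8 in WT VSMC (Abca1, Abcg1, Mylip and Lpcat3) against 7.45% of all genes, 1 of 8 in KO VSMC (Mylip) against 0.399%, and 4 of 8 in EC (Abca1, Abcg1, Mylip and Srebf1) against 3.18%. Every called member was lower than Control and none was higher. AII + NA called 0 of 8 in each cell type in edgeR, with 0 of 8 also at an unadjusted p under 0.05 and 0 of 8 in DESeq2, against 0.0532% of all genes in WT VSMC and 0% in KO VSMC and EC. Under HG + FFA the median log2FC over the 8 members was -0.22, -0.29 and -0.38 in WT VSMC, KO VSMC and EC, while the median over all genes tested lay between -0.01 and 0.00. Under ALL the median of the members was -0.25, -0.39 and -0.34 in the same order, and under AII + NA it was 0.00, 0.02 and -0.04. A stricter rule of the study asks in addition for an FDR below 0.05 in DESeq2, an absolute log2FC no smaller than 0.64 and 3 or more FPM in a group. It was met by 0.284%, 0.285% and 0.641% of all genes under HG + FFA and 2.17%, 0.314% and 0.636% under ALL in the order WT VSMC, KO VSMC and EC. The members that met it were Mylip in all 6 of the comparisons with metabolic stressors, Abca1 in WT VSMC under ALL and in EC under HG + FFA and ALL, and Abcg1 in EC under HG + FFA and ALL.

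**Figure D1:**
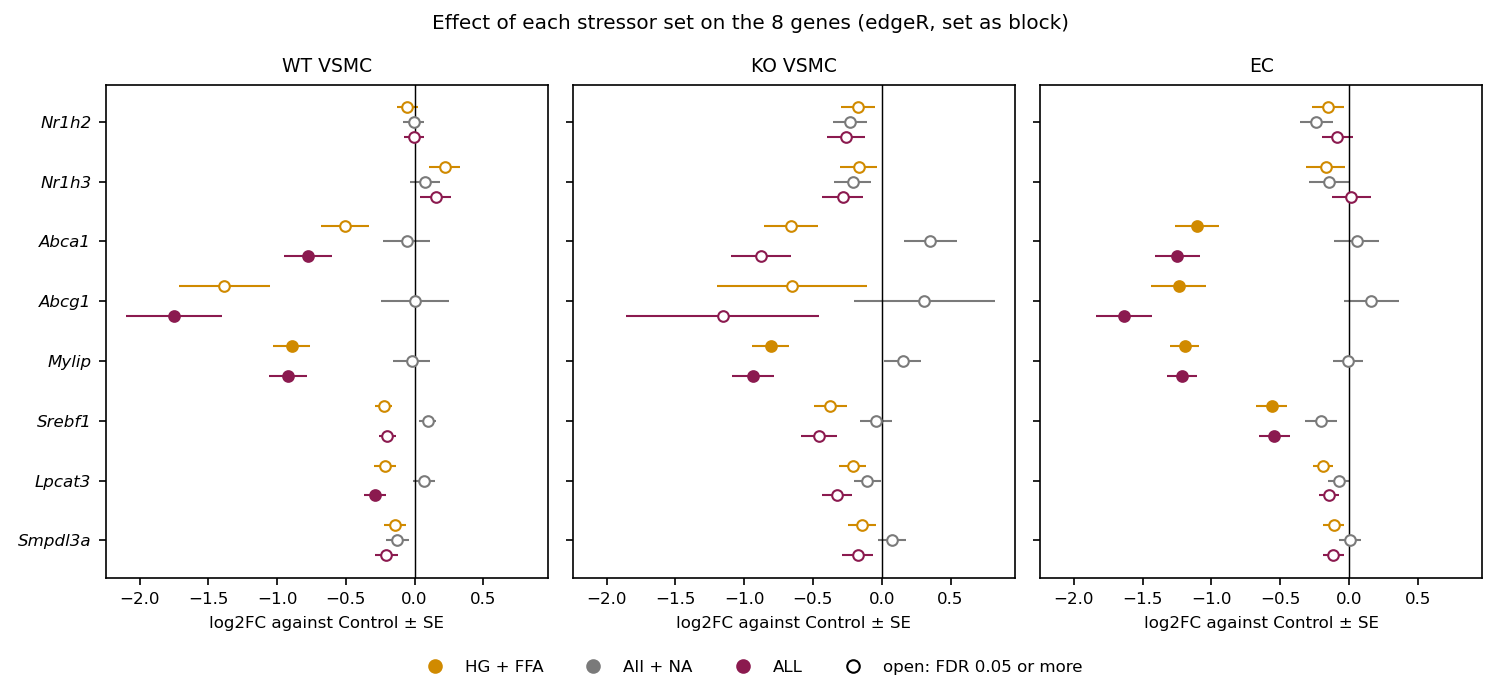
Log2FC against Control with its SE (horizontal axis, edgeR with the set as a block) of the 8 genes in WT VSMC, KO VSMC and EC. Filled symbols had an FDR under 0.05, and all of them lie left of 0; the symbols of AII + NA are open throughout.

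Under Control conditions LXRβ was the more abundant receptor transcript per length in all cell types. Nr1h2 (ENSMUSG00000060601, GRCm39 chromosome 7, 44199036 to 44203406) had 40.3 ± 2.80 FPM per kb of exon in WT VSMC (SD, n = 4), 39.4 ± 4.48 in KO VSMC (n = 4) and 27.1 ± 6.22 in EC (n = 9). Nr1h3 (ENSMUSG00000002108, chromosome 2, 91014394 to 91033417) had 2.19 ± 0.522, 3.53 ± 0.918 and 1.71 ± 0.621 FPM per kb in the same order, so that the lowest Nr1h2 value of any Control library (16.1 in EC) was above the highest of Nr1h3 (4.76 in KO VSMC). Of the exon bases of Nr1h3, 5.73% overlap Acp2 or Gm13783. On the same scale Abca1 had 23.4 ± 7.86 FPM per kb in WT VSMC and 23.2 ± 10.8 in EC, while Abcg1 had 0.208 ± 0.127 and 1.04 ± 1.03. The efflux pair was thus very unequal at the RNA level in WT VSMC and in EC. Mylip had 24.3 ± 6.02 FPM per kb in WT VSMC, Srebf1 20.8 ± 2.93 and Smpdl3a 47.5 ± 21.8. Lpcat3 was lower, at 6.47 ± 1.29 FPM per kb, but 53.8% of its exon bases overlap Emg1 on the opposite strand, so that its counts are uncertain.

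**Figure D2:**
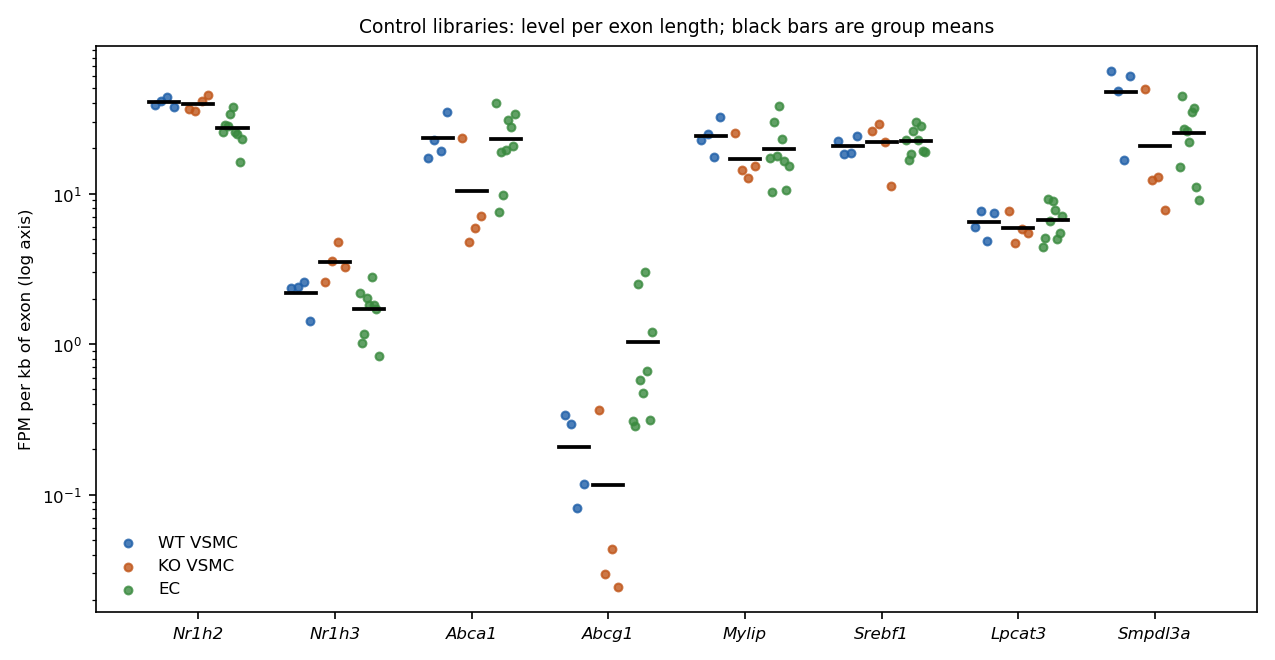
Level per kb of exon (logarithmic vertical axis) of the 8 genes in the Control libraries of WT VSMC (n = 4), KO VSMC (n = 4) and EC (n = 9), with 1 point per library and black bars for the means. Nr1h2 lies above Nr1h3 in every library, and Abcg1 is the lowest of the 8 genes in the means of each cell type.

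The receptors themselves stayed within the spread of the sets. In WT VSMC, Nr1h2 in sets 1 to 4 was 135, 142, 152 and 130 FPM in Control, and 134, 133, 155 and 135 FPM under ALL. Its log2FC was -0.05 ± 0.07 (SE) under HG + FFA, -0.01 ± 0.07 under AII + NA and -0.01 ± 0.07 under ALL. The groups overlapped, and 2 of 4 sets were higher and 2 were lower under ALL. In KO VSMC, Nr1h2 in sets 5 to 8 was 125, 123, 142 and 156 FPM in Control, and 126, 111 and 96.2 FPM in sets 6 to 8 under ALL. Set 8 had the highest Control value and the lowest value under ALL, and the log2FC was -0.26 ± 0.14 (FDR 0.519). In EC, Nr1h2 had a lowest, median and highest level of 55.7, 89.3 and 131 FPM in Control and of 48.4, 86.9 and 127 FPM under ALL, with a log2FC of -0.08 ± 0.11 (FDR 0.781).

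Nr1h3, the receptor isotype that is itself an LXR target in some cells, showed small differences of either sign. In WT VSMC it was 11.9, 12.04, 13.2 and 7.19 FPM in sets 1 to 4 in Control and 13.2, 10.3, 17.1 and 10.9 FPM under HG + FFA, a log2FC of 0.22 ± 0.11 (FDR 0.488), with 3 of 4 sets higher. In KO VSMC it was 12.99, 17.9, 24.1 and 16.4 FPM in sets 5 to 8 in Control and 17.9, 17.04 and 11.02 FPM in sets 6 to 8 under ALL, a log2FC of -0.28 ± 0.15 (FDR 0.53). In EC its level reached from 4.21 over a median of 9.16 to 14.1 FPM in Control and under ALL from 3.88 over a median of 8.52 to 20.4 FPM, and the log2FC was 0.02 ± 0.14 (FDR 0.975). The groups overlapped in each of these comparisons.

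Mylip (ENSMUSG00000038175, chromosome 13, 45543215 to 45565501) encodes the ligase that limits lipoprotein uptake. In WT VSMC it was 75.4, 82.0, 58.2 and 106 FPM in sets 1 to 4 in Control. Under HG + FFA the same sets had 33.7, 55.8, 21.1 and 75.3 FPM, and under ALL 37.0, 40.6, 29.8 and 67.3 FPM. Each of the 4 sets was lower than its own Control under both conditions, although the groups overlapped because set 4 was high throughout. The log2FC was -0.90 ± 0.14 (FDR 0.00649) under HG + FFA and -0.92 ± 0.14 (FDR 0.00113) under ALL, which is 53.8% and 52.8% of Control. The call under HG + FFA rests on sets 1 and 3: the FDR was 0.113 without set 1 (log2FC -0.81) and 0.0651 without set 3 (log2FC -0.72), while the call under ALL was kept without any single set. With AII + NA alone, sets 1 to 4 had 76.0, 75.3, 56.7 and 111 FPM, close to Control in each set (log2FC -0.02 ± 0.13, FDR 0.981).

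In KO VSMC, Mylip was 83.7, 47.7, 41.8 and 50.9 FPM in sets 5 to 8 in Control and 54.4, 22.3, 19.8 and 37.6 FPM under HG + FFA, lower in 4 of 4 sets. Under ALL, sets 6 to 8 had 23.0, 16.3 and 36.8 FPM, lower in 3 of 3 sets and below every Control library. The log2FC was -0.81 ± 0.14 (FDR 0.0147) under HG + FFA and -0.94 ± 0.15 (FDR 0.0165) under ALL. Both calls were lost without set 6 (FDR 0.233 and 0.180) and without set 7 (FDR 0.188 and 0.315), with log2FC between -0.93 and -0.72, and both were kept without set 5. The Mylip call under HG + FFA in KO VSMC thus did not need the set with residual Egfr RNA. For the call under ALL, leaving out set 5 is hardly a check, because that set had no ALL library. These decreases were already known when the genes were chosen and are no independent evidence.

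In EC, the lowest, median and highest Mylip levels were 34.0, 57.1 and 127 FPM in Control, 11.1, 27 and 49.2 FPM under HG + FFA, 27, 58.9 and 123 FPM under AII + NA and 10.7, 24.3 and 60.6 FPM under ALL. All 9 sets with a Control library were lower under HG + FFA and all 9 under ALL, from -0.44 in set 11 to -2.24 in set 18 on the log2 scale under ALL. The log2FC was -1.20 ± 0.11 (FDR 4.92e-09) and -1.21 ± 0.11 (FDR 3.89e-09). Without sets 9, 11 and 13, the EC with the lowest endothelial marker levels, it was -1.34 and -1.32, and without sets 15 and 16 it was -1.22 and -1.24.

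Abca1 (ENSMUSG00000015243, chromosome 4, 53030787 to 53159900) encodes the efflux pump for lipid-poor acceptors. In WT VSMC it was 212, 276, 235 and 427 FPM in sets 1 to 4 in Control. Under HG + FFA the sets had 105, 255, 177 and 293 FPM, and under ALL 103, 121, 203 and 249 FPM. All 4 sets were below their own Control under each condition, but they did not respond alike: set 1 had reached its low level under HG + FFA, whereas set 2 was low under ALL only. The log2FC was -0.51 ± 0.17 (FDR 0.251) under HG + FFA and -0.78 ± 0.17 (FDR 0.0128) under ALL. The call under ALL was lost without set 1 (log2FC -0.68, FDR 0.0512) and without set 4 (log2FC -0.77, FDR 0.0776). Under AII + NA, sets 1 to 4 had 211, 308, 213 and 347 FPM, 1 set higher and 3 lower than Control (log2FC -0.06 ± 0.17, FDR 0.952).

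In KO VSMC, Abca1 was 288 FPM in set 5 and 58.8, 73.0 and 87.2 FPM in sets 6 to 8 in Control. Under HG + FFA the sets had 132, 24.7, 57.5 and 99.1 FPM, and under ALL sets 6 to 8 had 19.6, 50.8 and 78.7 FPM. Set 8 was the exception, with a higher level under HG + FFA than in Control. The log2FC of -0.66 ± 0.19 (FDR 0.214) under HG + FFA and of -0.88 ± 0.22 (FDR 0.118) under ALL did not pass. Without set 8 both passed (log2FC -0.94 with FDR 0.0387, and -1.16 with FDR 0.0381), and in DESeq2 both passed with all sets (FDR 0.0450 and 0.00892). Under AII + NA, sets 5 to 8 had 271, 66.6, 119 and 150 FPM, higher than Control in 3 of 4 sets (log2FC 0.35 ± 0.19, FDR 0.518).

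In EC, Abca1 had a lowest, median and highest level of 92.4, 253 and 488 FPM in Control, of 56.3, 108 and 285 FPM under HG + FFA, of 93.7, 247 and 515 FPM under AII + NA and of 46.8, 90 and 261 FPM under ALL. It was lower in 9 of 9 sets under HG + FFA and under ALL, with the weakest response in set 11 and the strongest in set 14 under both. The log2FC was -1.10 ± 0.16 (FDR 5.40e-05) under HG + FFA and -1.25 ± 0.16 (FDR 7.99e-06) under ALL, which left 46.6% and 42.1% of Control. Without sets 9, 11 and 13 the values were -1.35 and -1.56, and without sets 15 and 16 they were -1.20 and -1.32. Because the libraries are bulk RNA, fewer cells with a high level of a transcript and less RNA of it per cell cannot be told apart here and in the other results.

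Abcg1 (ENSMUSG00000024030, chromosome 17, 31276649 to 31336969), the pump for HDL particles, was scarce in VSMC. In WT VSMC it was 2.61, 2.26, 0.626 and 0.903 FPM in sets 1 to 4 in Control, from 23 to 87 counts per library. Under ALL the sets had 0.519, 0.353, 0.324 and 0.605 FPM, from 9 to 16 counts, and every value was below every Control value. The log2FC was -1.75 ± 0.35 (FDR 0.00666), or 29.7% of Control, and the call was lost without set 2 (log2FC -1.44, FDR 0.0697). Under HG + FFA the sets had 0.402, 0.834, 0.419 and 0.643 FPM, lower than their own Control in 4 of 4 sets, with a log2FC of -1.39 ± 0.33 that did not pass (FDR 0.0813) but passed in DESeq2 (FDR 0.0237). In KO VSMC, set 5 had 2.81 FPM in Control and sets 6 to 8 had 0.230, 0.334 and 0.189 FPM. Under ALL, sets 6 and 8 had 0.264 and 0.153 FPM and set 7 had 0 counts, which allows a level of up to 0.119 FPM (3 counts). At these levels no difference was detectable in KO VSMC (log2FC -1.16 ± 0.71 under ALL, FDR 0.580).

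In EC, Abcg1 had a lowest, median and highest level of 2.21, 4.49 and 23.2 FPM in Control, of 1.10, 2.20 and 8.14 FPM under HG + FFA and of 1.08, 1.62 and 7.70 FPM under ALL. Sets 12 and 15 were far above the others in Control, with 19.4 and 23.2 FPM. Set 15 remained the highest under HG + FFA and ALL. Abcg1 was lower than Control in 8 of 9 sets under HG + FFA, with set 11 at the level of its Control, and in 9 of 9 sets under ALL. The log2FC was -1.24 ± 0.20 (FDR 0.000256) and -1.64 ± 0.20 (FDR 4.18e-06). It was -1.48 and -1.76 without sets 9, 11 and 13, and -1.17 and -1.68 without sets 15 and 16.

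**Figure D3:**
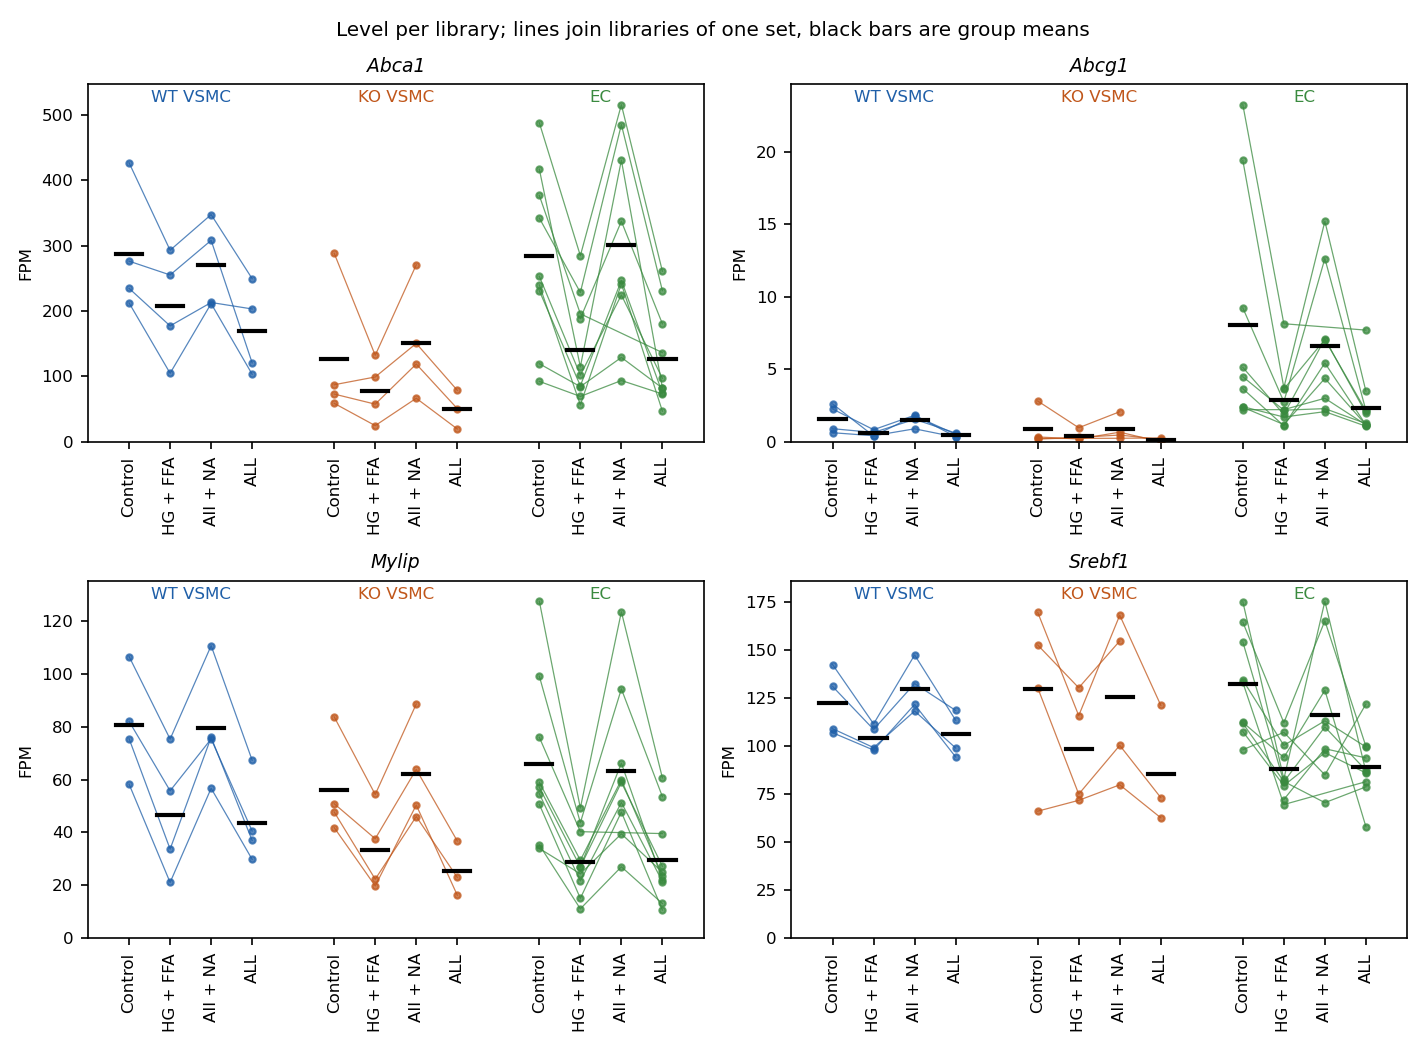
FPM (vertical axis, starting at 0) of Abca1, Abcg1, Mylip and Srebf1 in each library, by cell type and condition, with lines joining the libraries of a set and black bars for group means. Lines for Mylip drop from Control to HG + FFA in all sets with both libraries, whereas under AII + NA some sets lie above and some below their Control.

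Srebf1 (ENSMUSG00000020538, chromosome 11, 60089913 to 60113407) responded in EC. Its lowest, median and highest levels there were 98.2, 133 and 175 FPM in Control, 69.7, 82.4 and 112 FPM under HG + FFA, 70.7, 110 and 176 FPM under AII + NA and 58.2, 87.2 and 122 FPM under ALL. It was lower in 8 of 9 sets under HG + FFA and under ALL, and set 11 was higher under both. The log2FC was -0.56 ± 0.11 (FDR 0.00296) and -0.54 ± 0.11 (FDR 0.00459), about 68% of Control. The call under ALL was kept without sets 9, 11 and 13 (log2FC -0.63) and was lost without sets 15 and 16 (log2FC -0.50, FDR 0.0513). In WT VSMC, sets 1 to 4 had 131, 107, 109.2 and 143 FPM in Control and 119, 94.5, 99.1 and 114 FPM under ALL, lower in 4 of 4 sets by a small amount (log2FC -0.20 ± 0.06, FDR 0.0659), which passed in DESeq2 (FDR 0.0396). In KO VSMC, sets 5 to 8 had 153, 170, 130 and 66.2 FPM in Control and sets 6 to 8 had 121, 73.3 and 62.8 FPM under ALL (log2FC -0.46 ± 0.13, FDR 0.196). The counts do not separate the transcripts for SREBP1a and SREBP1c, and 3.05% of the exon bases overlap Mir6922 or Rai1.

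Lpcat3 (ENSMUSG00000004270, chromosome 6, 124639765 to 124684440) was called in WT VSMC under ALL. Sets 1 to 4 had 47.9, 60.6, 38.6 and 58.8 FPM in Control and 41.3, 39.3, 35.1 and 52.6 FPM under ALL. The change was small (log2FC -0.29 ± 0.08, FDR 0.0437), and leaving out any of the 4 sets ended the call, with FDR of 0.0835, 0.308, 0.0650 and 0.126 without sets 1 to 4. The log2FC under ALL was -0.33 ± 0.11 (FDR 0.293) in KO VSMC and -0.14 ± 0.07 (FDR 0.330) in EC. In EC under HG + FFA it was -0.19 ± 0.07 (FDR 0.147) and passed without set 17 only (log2FC -0.25, FDR 0.0452). Smpdl3a (ENSMUSG00000019872, chromosome 10, 57670431 to 57688374) differed more between sets than between conditions. In WT VSMC Control it was 188, 139, 48.0 and 175 FPM, with set 3 low under every condition, and in KO VSMC Control 143 FPM in set 5 against 35.4, 37.5 and 22.5 FPM in sets 6 to 8. Its log2FC lay between -0.21 and 0.08 in the 9 comparisons with Control, with no call.

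Whether the hormones added to the effect of the metabolic stressors was tested as ALL against HG + FFA and as the departure of ALL from the sum of both effects on the log2 scale. In edgeR 0 of 8 members passed in any cell type, none at an unadjusted p under 0.05 and none in DESeq2. Of all genes, 0.0414% passed for ALL against HG + FFA in WT VSMC and 0% in the other 5 comparisons. Mylip differed by -0.03 ± 0.14 between ALL and HG + FFA in WT VSMC, by -0.13 ± 0.15 in KO VSMC and by -0.02 ± 0.11 in EC. Abca1 differed by -0.27 ± 0.17 (FDR 0.596) in WT VSMC and by -0.15 ± 0.15 in EC. The departures from additivity of Abca1 were -0.21 ± 0.24 in WT VSMC, -0.57 ± 0.28 (FDR 0.658) in KO VSMC and -0.20 ± 0.23 in EC, and that of Abcg1 in EC was -0.56 ± 0.29 (FDR 0.594).

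The role of the genotype was tested as the difference of the stressor effects between KO VSMC and WT VSMC in a joint model of both. In edgeR 0 of 8 members passed under each condition, and 0%, 0% and 0.0109% of all genes passed in edgeR under HG + FFA, AII + NA and ALL. In DESeq2 0 of 8 members passed as well. At an unadjusted p under 0.05 there was 1 member under HG + FFA and 1 under ALL, Nr1h3 in both. For Mylip the effect in KO VSMC differed from that in WT VSMC by 0.09 ± 0.20 under HG + FFA and by -0.02 ± 0.22 under ALL, and for Abca1 by -0.15 ± 0.28 and -0.11 ± 0.30. With SE of this size, differences larger than these SE could also go undetected, so that these values do not show equal effects. The effect on Nr1h3 differed by -0.39 ± 0.18 (FDR 1) under HG + FFA and by -0.44 ± 0.19 (FDR 0.614) under ALL. Between EC and WT VSMC 0 of 8 members passed in edgeR and in DESeq2, against 0%, 0.0465% and 0.511% of all genes in edgeR, with 1 member at an unadjusted p under 0.05 (Abca1 under HG + FFA). The effects on Abca1 differed by -0.60 ± 0.28 under HG + FFA and -0.46 ± 0.28 under ALL. The corresponding differences of Mylip were -0.30 ± 0.19 and -0.28 ± 0.19, and those of Srebf1 were -0.34 ± 0.18 and -0.33 ± 0.18.

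In the Control libraries, the calls for the genotype depended on KO VSMC set 5. With all sets, 0 of 8 members were called in edgeR and in DESeq2, 2 had an unadjusted p under 0.05 (Nr1h3 and Abca1), and 0.00622% of all genes were called. The log2FC of KO VSMC against WT VSMC was -1.19 ± 0.50 (FDR 0.408) for Abca1 and -1.21 ± 0.61 (FDR 0.427) for Smpdl3a. Without set 5, Abca1 (log2FC -1.98, FDR 0.0245) and Smpdl3a (log2FC -2.12, FDR 0.0485) were both called as lower in KO VSMC. The summed fibroblast marker level was 1350 to 6190 FPM in KO VSMC Control against 4700 to 10800 FPM in WT VSMC Control, and the summed macrophage marker level was 17.5 to 128 FPM against 29.3 to 240 FPM. The summed smooth muscle marker level was 881 to 2870 FPM in KO VSMC Control against 280 to 1090 FPM in WT VSMC Control, and the summed endothelial marker level was 1.32 to 9.31 FPM against 0.953 to 54.4 FPM. With all sets, edgeR called 0 of 4 fibroblast, 0 of 5 macrophage, 0 of 5 smooth muscle and 0 of 3 tested endothelial markers between the genotypes. Within KO VSMC, set 5 had the highest mean of each of these sums over its libraries. The means were 5820 FPM for fibroblast, 141 FPM for macrophage, 3070 FPM for smooth muscle and 8.16 FPM for endothelial markers. In sets 6 to 8 they were at most 2090, 35.4, 1880 and 4.6 FPM in the same order. The part of these markers in the result was not tested. The log2FC of Nr1h3 was 0.68 ± 0.25 (FDR 0.388).

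Between EC and WT VSMC in Control, 0 of 8 members were called in edgeR where 12% of all genes were, with 3 members at an unadjusted p under 0.05. The closest were Nr1h2 (log2FC -0.56 ± 0.18, FDR 0.0544) and Abcg1 (log2FC 2.33 ± 0.77, FDR 0.0611). In DESeq2 both passed (FDR 0.0365 and 0.00557), and both passed without EC sets 9, 11 and 13 (log2FC -0.61 with FDR 0.0346, and 2.73 with FDR 0.0182). Leaving out single EC sets brought Nr1h2 past the threshold without set 13 (FDR 0.0294), set 14 (FDR 0.0279) or set 17 (FDR 0.0473), and Abcg1 without set 11 (FDR 0.0408). The log2FC of Abca1 was 0.00 ± 0.39, an interval wide enough to hold sizeable differences in either direction.

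The genes whose 9 log2FC against Control were most like those of the responding members were found among 10698 other protein-coding genes whose mean was 3 FPM or more in every cell type (10699 for Abcg1), by the smallest root mean square difference on the log2 scale. These 9 values share Control libraries within a cell type. For Abca1 the closest was Mylip (0.168), followed by Aldh1a2, which makes retinoic acid (0.169), and Scd2, a stearoyl-CoA desaturase (0.199). For Mylip they were Abca1, Aldh1a2 (0.187) and Ppp1r3c, a glycogen-targeting phosphatase subunit (0.218). Abca1 and Mylip were thus nearest to each other in both directions. For Abcg1 they were Scara5 (0.338), a ferritin receptor, Angptl7 (0.354) and Mylip (0.371), and for Srebf1 the small effects of Dpt (0.0567), Sox9 (0.0719) and Matn4 (0.0804).

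Other genes of the LXR axis were read from lists chosen by function. Of the LXR partners and coregulators, among them retinoid X receptors and NCoR corepressors, none of the 8 measured in WT VSMC and of the 7 measured in KO VSMC and EC passed under HG + FFA or ALL. Of 16 other known LXR targets, 10 were measured in VSMC and 9 in EC, and all that passed were lower. Scd2 was the most regular: its log2FC was -0.58 ± 0.13 (FDR 0.0160) in WT VSMC under ALL, -0.66 ± 0.11 (FDR 0.0138) in KO VSMC under HG + FFA and -0.90 ± 0.15 (FDR 0.000245) in EC under HG + FFA. Apoe, an apolipoprotein that accepts effluxed cholesterol, fell in WT VSMC under ALL (log2FC -0.44 ± 0.12, FDR 0.0359) and in EC under ALL (log2FC -0.51 ± 0.13, FDR 0.0270). In EC, Pltp fell under HG + FFA (log2FC -0.29 ± 0.08, FDR 0.0463) and Acaca under ALL (log2FC -0.40 ± 0.10, FDR 0.0142). The numbers that passed were 0, 1 and 3 under HG + FFA and 2, 1 and 3 under ALL in WT VSMC, KO VSMC and EC. Of all genes, 0.538%, 0.439% and 3.53% passed under HG + FFA and 7.45%, 0.399% and 3.18% under ALL in the same order. The median log2FC of the list lay between -0.36 and -0.17 in these 6 comparisons.

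Of the lipoprotein receptors that Mylip marks for degradation, Vldlr fell at the RNA level in each cell type. Under ALL the log2FC of Vldlr was -0.72 ± 0.12 (FDR 0.00293), -0.64 ± 0.13 (FDR 0.0489) and -0.46 ± 0.10 (FDR 0.00642) in WT VSMC, KO VSMC and EC. Lrp8 passed in no comparison with Control. Protein levels of these receptors were not measured by RNA-Seq.

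The sterol synthesis genes, which SREBP2 drives when cell cholesterol is low, passed mainly in WT VSMC. Of 22 measured there, 14 rose under ALL, where 7.45% of all genes passed. Among the 14 were Fdps (log2FC 1.11 ± 0.24, FDR 0.0105), Idi1 (1.07 ± 0.30, FDR 0.0434) and Sqle (0.89 ± 0.11, FDR 0.000436), and the list median was 0.54. Under HG + FFA 0 of 22 passed in WT VSMC in edgeR, with a list median of 0.44, and the direct comparison of ALL with HG + FFA called 0 of 22 in edgeR (median 0.11). In KO VSMC 0 of 22 passed under ALL (median 0.26), and in EC 0 of 21 (median 0.12). Sc5d was the only gene of the list to pass in EC under HG + FFA (log2FC 0.29 ± 0.08, FDR 0.0257). The difference between WT VSMC and EC under ALL itself passed for 2 of 22 genes, among them Sqle (difference -0.83 ± 0.17, FDR 0.00751), and that between WT VSMC and KO VSMC for 0 of 22 in edgeR. Of all genes, 0.511% and 0.0109% passed for these differences in the same order. Of the 5 genes that form or remove sterol ligands, such as Ch25h and Cyp27a1, none passed in a comparison with Control. Among 9 measured genes of cholesterol storage and trafficking, Scarb1, the HDL receptor, rose in WT VSMC under ALL (log2FC 0.58 ± 0.12, FDR 0.00976) and no other gene passed.

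Targets of the fatty acid sensors of the PPAR family showed the opposite direction to the LXR targets in the same libraries. Of 8 such genes, WT VSMC had 2 that rose under HG + FFA and 4 under ALL, while KO VSMC and EC had 6 under each condition, with none lower. In WT VSMC, KO VSMC and EC, 0.538%, 0.439% and 3.53% of all genes passed under HG + FFA. Under ALL the shares were 7.45%, 0.399% and 3.18%. In EC under ALL, Angptl4, an inhibitor of lipoprotein lipase, rose by 3.22 ± 0.31 on the log2 scale (FDR 2.86e-08) and Pdk4, a brake on pyruvate oxidation, by 1.11 ± 0.13 (FDR 6.73e-07). Under AII + NA no gene of these 7 lists passed in any cell type.

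**Figure D4:**
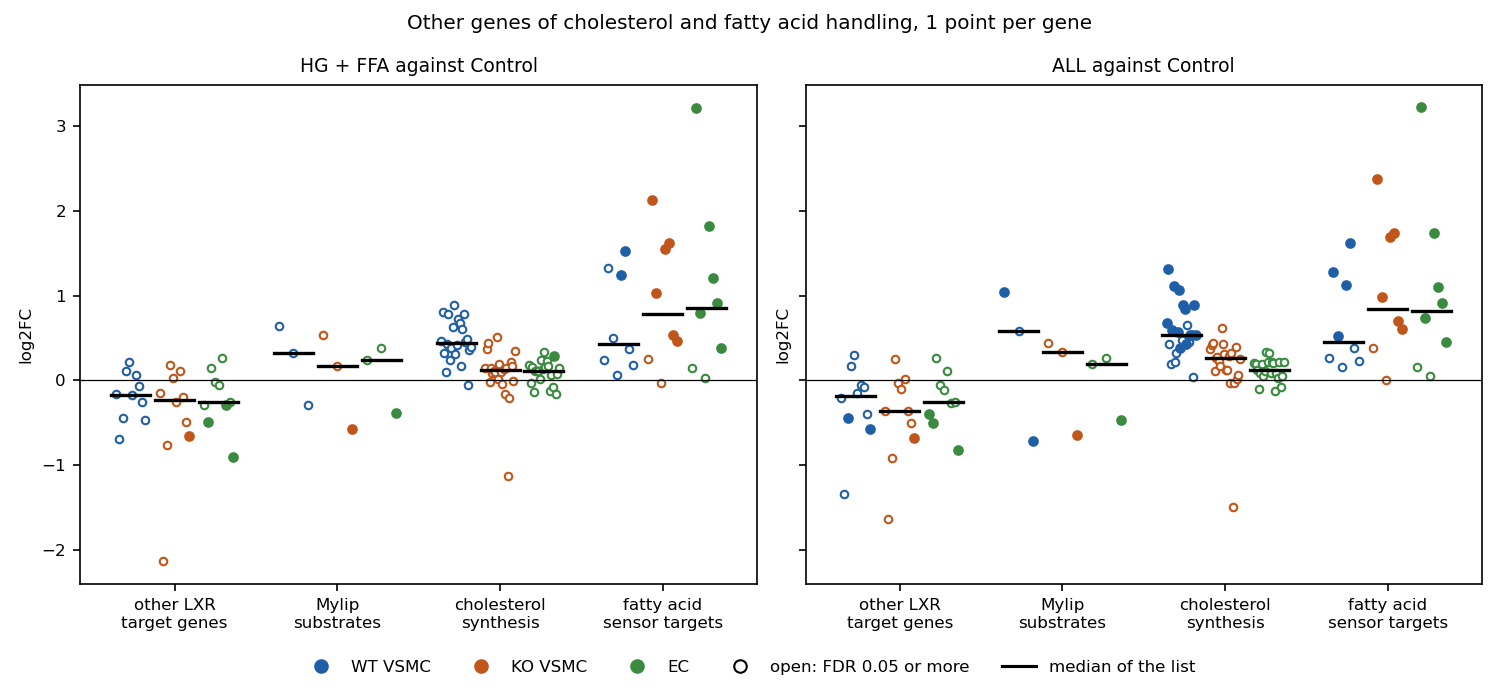
Log2FC against Control (vertical axis) under HG + FFA and under ALL of the single genes of 4 lists, by cell type, with filled points for an FDR under 0.05 and black bars for list medians. The medians of the LXR target list lie below 0, those of the PPAR target list above 0, and filled points for cholesterol synthesis under ALL occur in WT VSMC (14 genes) only.

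Among the markers of the cell types, those that moved with the stressors were Mylk (log2FC 1.11 ± 0.18, FDR 0.00211) and Tagln (0.95 ± 0.26, FDR 0.0361), higher in WT VSMC under ALL, Cdh5 (-1.17 ± 0.25, FDR 0.00994), lower in WT VSMC under ALL from a low level, and Col1a1 (-0.73 ± 0.19, FDR 0.0200), lower in EC under HG + FFA. Mylk also passed under AII + NA in WT VSMC (log2FC 1.09 ± 0.18, FDR 0.0441), where no LXR target moved. No marker passed in KO VSMC. The summed macrophage marker level was 29.3 to 240 FPM in WT VSMC Control and 35.6 to 154 FPM under ALL, and 4.78 to 106 FPM in EC Control and 8.07 to 96.7 FPM under ALL, with 0 of 5 markers called in edgeR. In the comparisons with Control, the macrophage marker nearest to the threshold was Adgre1 in WT VSMC, with a log2FC of -0.84 ± 0.34 (FDR 0.361) under HG + FFA and -1.20 ± 0.35 (FDR 0.0556) under ALL. The summed smooth muscle marker level in WT VSMC was 280 to 1090 FPM in Control, 265 to 864 FPM under HG + FFA, 763 to 1950 FPM under AII + NA and 1020 to 1440 FPM under ALL. The part of cell composition in the decreases of Abca1, Abcg1 and Mylip was not tested beyond these values.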

How the data were processed

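Poly(A) RNA of the cells was sequenced in paired-end mode. The authors aligned the reads with HISAT2 2.1.0 and deposited featureCounts counts per Ensembl gene, summed over exons with multi-mapping reads included. The strand setting is not given in the sources used here, so that overlapping genes cannot be told apart. Symbols and positions came from a GRCm39 annotation, which held 56310 of the 56953 identifiers; 0.0241% of counts lay outside it. Promoters came from RefSeq (GRCm38.p6).

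Counts were analysed with R 4.3.3. Each cell type was fitted with edgeR 4.0.16 (TMM, filterByExpr, quasi-likelihood test) with set and condition as terms, leaving 16905, 17538 and 17148 genes in WT VSMC, KO VSMC and EC. Differences between genotypes and between cell types were interaction terms in joint models of 18339 and 19362 genes, and the Control libraries were compared without the set (16089 and 17115 genes). The FDR is the Benjamini-Hochberg adjusted p-value across the genes of a fit. FPM were scaled by TMM over all 69 libraries, and 0.1 FPM was added for ratios within a set. Depth was 23626664 to 37801299 counts in WT VSMC, 23238979 to 35120866 in KO VSMC and 17166133 to 43240489 in EC. The floor of 3 counts covers counting error only, whereas SE come from the fits and include the spread between sets.

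The set is the replicate number of the labels and, per the methods of the study, marks a shared animal and time of treatment. Deviations from group means correlated within sets (mean r 0.797, 0.78 and 0.82, lowest 0.494, against -0.269, -0.28 and -0.0913 between sets). EC sets 17 and 18 share an animal, which the set block treats as separate. No libraries were duplicates (207 pairs compared).

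Alternatives were DESeq2 1.42.0, its size factors in edgeR, no filter on low counts, no replicate block, the animal as the block, a fit of only the groups compared, the stricter rule of the study, and each set left out in turn. The fits without EC sets 9, 11 and 13 and without EC sets 15 and 16 were chosen after seeing the data. The fits were tested on simulated data.

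The 8 members were named in every comparison. Of each list, up to 4 genes that passed with the greatest absolute log2FC were named, and for members called in 2 or more comparisons with Control the 3 most similar genes. Some genes of the lists are not reported here by name. Members and lists were chosen with earlier results of these data known. 0 columns of other samples were in the tables. KO VSMC set 5 ALL, EC set 10 Control and EC set 15 AII + NA were not analysed here.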

Additional observations from a re-analysis of the deposited data

Results flagged for a closer look

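In 10 of 88 groups of 4 to 10 libraries, the highest library of a gene stood apart from the others by Dixon's test at the 95% level. Chance alone gives this in about 1 of 20 independent groups. The 88 groups reuse the same sets across genes and conditions and are not independent, so 10 of 88 cannot be weighed against that rate. KO VSMC set 5, the set with residual Egfr RNA, was the library in 7 of the 10 groups.

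In KO VSMC set 5, Abca1 had 288 FPM in Control (next highest 87.2 FPM) and Abcg1 had 2.81 FPM in Control (next 0.334 FPM) and 0.969 FPM under HG + FFA (next 0.301 FPM). Smpdl3a had 143 FPM in Control, 120 FPM under HG + FFA and 135 FPM under AII + NA, with next values of 37.5, 38 and 41.4 FPM. Lpcat3 had 61.9 FPM under AII + NA (next 38.7 FPM). The same set had a mean summed fibroblast marker level of 5820 FPM and a mean summed smooth muscle marker level of 3070 FPM and a mean summed macrophage marker level of 141 FPM, each the highest of KO VSMC, and the part of these in these values was not tested.

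In EC set 15, from an animal that also gave KO VSMC, Abcg1 had 8.14 FPM under HG + FFA (next 3.73 FPM) and 7.7 FPM under ALL (next 3.49 FPM). In WT VSMC set 3, Nr1h2 had 155 FPM under ALL, against 135 FPM in the next library.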

How the results depend on the processing

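No called value of a member changed its sign under any alternative run. The replicate block decided the calls: with no replicate block, 0 members were called in all 6 comparisons of HG + FFA or ALL with Control, against 1 and 4 in WT VSMC, 1 and 1 in KO VSMC and 4 and 4 in EC, and the cause was not tested. Under HG + FFA in WT VSMC, 3 members were called by DESeq2, 3 with no filter on low counts and 2 with only the 2 groups compared. Under HG + FFA in KO VSMC the counts were 2, 3 and 0 in the same order, and under ALL in KO VSMC they were 2 by DESeq2 and 3 with no filter. The share of all genes called in each alternative fit is not given here, so these counts cannot be weighed against it. With no filter, Abca1 under HG + FFA in WT VSMC had an FDR of 7.08e-06 (log2FC -0.505), against 0.251 (log2FC -0.507) in the main fit. Under ALL in WT VSMC the stricter rule of the study left 2. With no filter on low counts, 1 member (Abca1) passed for the difference of the HG + FFA effect between EC and WT VSMC. Between EC and WT VSMC in Control, 2 members passed by DESeq2 and 2 without EC sets 9, 11 and 13. With 1 set left out at a time, the members called ranged from 0 to 1 (WT VSMC, HG + FFA), 2 to 3 (WT VSMC, ALL), 0 to 2 (KO VSMC, HG + FFA and ALL), 0 to 2 (KO VSMC against WT VSMC in Control, 2 without set 5) and 0 to 1 (EC against WT VSMC in Control); in EC they ranged from 4 to 5 under HG + FFA (5 without set 17) and stayed at 4 under ALL. DESeq2 size factors in edgeR and the animal in place of the set changed no call. Depth limits Abcg1 in VSMC, which had from 0 to 87 counts per library.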
